A study of Mus musculus with 18 samples.

Results

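Siglecs are sialic acid-binding lectins of the immunoglobulin superfamily that sit on the surface of blood cells and read the sialic acid of their own and neighbouring cells. 7 Siglec genes of the mouse were followed here: Siglec1, Cd22, Cd33, Siglece, Siglecf, Siglecg and Siglech. They were chosen by symbol, and all 7 were found by Ensembl identifier among the 55414 genes counted. The family was taken up with the PM2.5 comparisons of these libraries already computed, in which Siglece stood out in the spleen. The p-values below therefore place each gene among all genes tested and are not independent evidence about the family.

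Polyadenylated RNA was sequenced from wild type C57BL/6J mice that breathed PM2.5, fine airborne particles, or filtered air for 30 days. The age and sex of the mice and the composition and dose of the particles are not given in the labels used here. The 4 groups were macrophages isolated from the spleen after PM2.5 (n = 5) and after air (n = 5), and whole spleens after PM2.5 (n = 4) and after air (n = 4). The series title names erythrocyte turnover, and the question for the Siglecs is whether their RNA differs with exposure in the organ and in its macrophages. The isolation method of the macrophages is not described. The design text of the second experiment speaks of filtered air following the exposures, without saying whether a recovery period was meant. The label of the particle groups reads CAP and was taken as PM2.5. The first macrophage library of the PM2.5 group is tagged as air in its treatment field, against its title, and was kept with PM2.5. The labels call the libraries biological replicates but do not tie them to single animals, so p-values measure the spread between these samples.

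Most Siglecs carry inhibitory tyrosine motifs in their tail, which recruit the phosphatases SHP-1 and SHP-2, encoded by Ptpn6 and Ptpn11, when the receptor meets sialic acid. Siglec1, or sialoadhesin, lacks such motifs and serves adhesion on the marginal metallophilic macrophages of the spleen. Cd22 and Siglecg restrain the B-cell receptor. Siglece, Cd33 and Siglecf belong to the fast-evolving CD33-related branch: Siglece is found on neutrophils, monocytes and macrophages, Cd33 on myeloid cells, and Siglecf on eosinophils and alveolar macrophages. Siglech works through the adaptor DAP12, encoded by Tyrobp, and marks plasmacytoid dendritic cells.

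In the GRCm38 annotation, Siglecf, Siglecg, Cd33 and Siglece lie in one cluster on chromosome 7. Siglecf spans chr7:43351341-43359531 and Siglecg chr7:43408204-43418358 on the plus strand, and Cd33 spans chr7:43524216-43544428 and Siglece chr7:43651070-43660161 on the minus strand. Cd22 at chr7:30865402-30880342 (minus) lies beside Mag at chr7:30899176-30914873 (minus), Siglech lies at chr7:55768178-55778925 (plus), and Siglec1 at chr2:131069220-131086765 (minus). Cd22 overlaps the antisense gene Gm29439. That gene averaged 0.909 CPM (a gene's count relative to the scaled library total, the unit used throughout) over the 18 libraries, where no Cd22 value fell below 305 CPM. The strand setting of the counting is not given in the sources used here. Of the 50-base windows along the longest transcript, 10.3% in Cd22 and 5.99% in Siglecg also occurred in another gene, and 0% in Siglece and Siglec1.

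Promoter windows of 3 members are printed from RefSeq on build GRCm38.p6, from 250 bases before to 50 after the start site. Windows were found for 6 of the 7 members. Those of Cd33 and Cd22 belong to RefSeq start sites inside the gene spans given above, not at their 5' ends. Siglece is shown because it was the member with the widest range of levels between the preparations. Capitals in it mark GAGGAA on either strand (TTCCTC as printed), the core of sites bound by the myeloid and B-cell factor PU.1.
Siglece, chr7:43660112-43660411, minus strand: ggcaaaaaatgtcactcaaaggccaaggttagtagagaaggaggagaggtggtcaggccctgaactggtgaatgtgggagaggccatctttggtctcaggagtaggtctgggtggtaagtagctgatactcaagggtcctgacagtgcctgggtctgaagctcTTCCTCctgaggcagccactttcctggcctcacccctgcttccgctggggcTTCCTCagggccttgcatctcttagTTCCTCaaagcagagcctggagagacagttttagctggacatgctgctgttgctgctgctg
The motif occurred 3 times there, without overlap between matches. It occurred once each in the windows of Cd33, Siglecf and Siglech, in none for Cd22, and 2 times or not at all in the 2 overlapping windows of Siglecg. Of 32851 mouse promoter windows of this length, 28.3% held at least 1 match and 0.685% held 3 or more. Cd33 and Siglecf are shown because theirs was the pair of member windows with the longest local alignment, the next longest being 33 columns between Cd33 and Siglecg. Capitals mark the best local alignment of the pair, with 62 identical bases in 80 alignment columns (77.5%) and a longest identical run of 16 bases.
Cd33, chr7:43533122-43533421, minus strand: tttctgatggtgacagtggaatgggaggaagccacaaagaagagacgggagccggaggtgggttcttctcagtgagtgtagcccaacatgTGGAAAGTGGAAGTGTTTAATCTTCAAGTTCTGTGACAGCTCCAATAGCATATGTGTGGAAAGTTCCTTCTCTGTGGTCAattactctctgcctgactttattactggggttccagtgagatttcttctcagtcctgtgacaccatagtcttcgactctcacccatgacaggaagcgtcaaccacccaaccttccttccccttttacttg
Siglecf, chr7:43351091-43351390, plus strand: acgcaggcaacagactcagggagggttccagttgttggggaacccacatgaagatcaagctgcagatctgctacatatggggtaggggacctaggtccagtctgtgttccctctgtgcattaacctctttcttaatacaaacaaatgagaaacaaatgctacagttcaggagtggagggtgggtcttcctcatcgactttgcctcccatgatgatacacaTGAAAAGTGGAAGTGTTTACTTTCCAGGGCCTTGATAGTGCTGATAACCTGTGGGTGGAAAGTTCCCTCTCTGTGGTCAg
Matches and resemblance are descriptions of these letters and were chosen after the expression values were seen.

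Library totals ran from 18848048 to 33844807 counts in PM2.5 macrophages, 18107264 to 29013034 in air macrophages, 18427891 to 19906706 in PM2.5 spleens and 16493694 to 20352346 in air spleens. The 13 red pulp macrophage markers were all more abundant in air macrophages than in air spleens, with a median log2 difference of 5.59, and all 10 B-cell markers were lower but not absent, with sums of 2454 to 4336 CPM in the 10 macrophage libraries against 4269 to 6953 CPM in the 8 spleens. Macrophage libraries thus held B-cell RNA, which touches every statement on Cd22 and Siglecg in them. Whole spleens stood apart in several ways. Erythroid markers summed to 9654 and 5842 CPM in PM2.5 replicates 2 and 4, and liver markers to 46.2 and 89.9 CPM in air replicates 3 and 4. Results are also given without those libraries where this changes a call. In all of these bulk samples, more cells of a type and more RNA per cell cannot be told apart.

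Levels per kilobase of exon allow different genes to be set side by side. On that scale Siglece was the leading Siglec of the macrophage preparations and one of the rarest of the air spleens. In CPM alone Cd22 led in macrophages, with 396 CPM after air and 451 CPM after PM2.5, against 317 and 260.4 CPM for Siglece. The order also depends on the length used, which joins all annotated exons. For Cd22 it is 5042 bases with a longest transcript of 3974, and for Siglece both are 1849 bases. In air macrophages Siglece reached 172 ± 37.9 CPM per kilobase (SD, n = 5), which was 52% of the family's summed level. Cd22 followed with 78.5 ± 16.4, Siglecg with 46.6 ± 5.74, Siglec1 with 22.7 ± 7.06, Cd33 with 7.41 ± 1.17, Siglech with 2.04 ± 0.453 and Siglecf with 1.49 ± 0.457 CPM per kilobase. Neighbours in this order did not overlap between libraries except Siglech and Siglecf. After PM2.5 the order in macrophages was the same, but Siglece (141 ± 45.5) overlapped Cd22 (89.5 ± 24.7 CPM per kilobase), as did Siglec1 and Cd33.

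In air spleens the 2 B-cell Siglecs led. Cd22 had 101 ± 23.6 CPM per kilobase (SD, n = 4) and 59.1% of the family's level, and Siglecg had 53.6 ± 16.5 and 31.3%. Siglech followed with 10 ± 2.91, ahead of Cd33 with 3.28 ± 1.21, Siglec1 with 2.06 ± 0.603, Siglece with 0.946 ± 0.264 and Siglecf with 0.103 ± 0.164 CPM per kilobase. Cd33 overlapped Siglec1, and Siglec1 overlapped Siglece. In spleens after PM2.5 Siglece stood above Cd33 with 4.38 ± 2.37 CPM per kilobase, though the libraries of the pair overlapped.

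**Figure D1:**
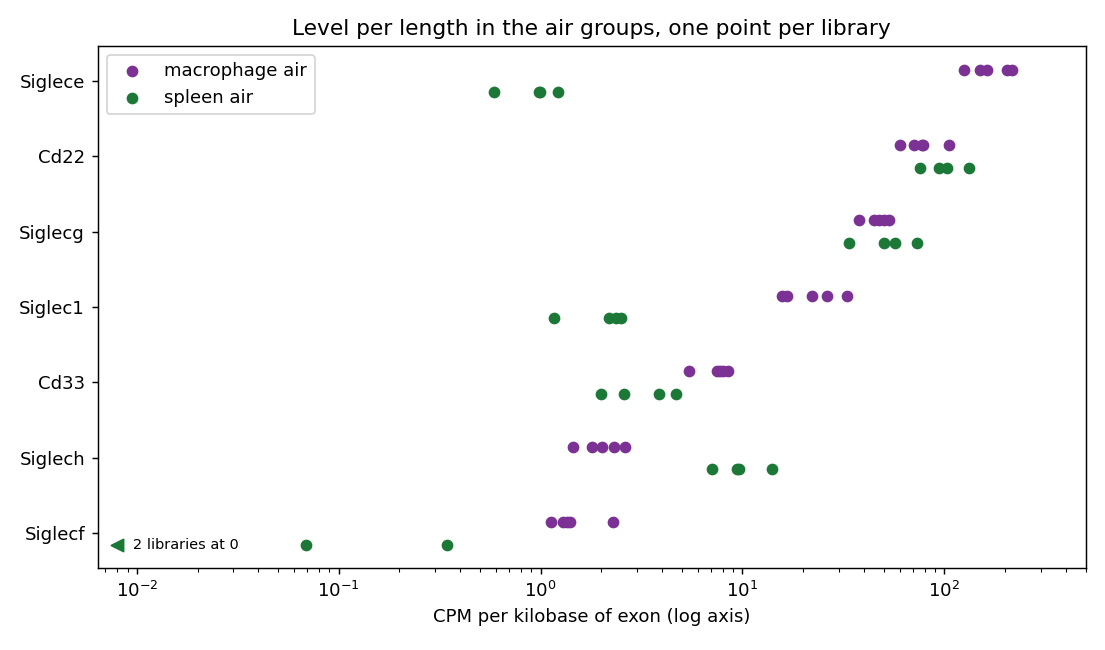
Level of each Siglec per kilobase of exon in the air groups, on a log axis, with 1 point per library (5 of macrophages in purple, 4 of whole spleen in green, and an arrow for 2 spleen libraries at 0). Siglece moves from the top of the macrophage order at 172 CPM per kilobase to next to last in the spleen at 0.946, while Cd22 and Siglecg stay high in both.

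Air macrophages and air spleens were compared in a joint fit of all 18 libraries with edgeR's quasi-likelihood test, with Benjamini-Hochberg adjustment over all genes and a threshold of 0.05. Of 17779 genes tested, 66.5% passed, so the 5 of 7 Siglecs that passed are close to the background share. Siglece was 179-fold higher in macrophages (log2 difference 7.48, SE 0.407, adjusted p = 1.32e-11), Siglecf 15-fold (3.91, SE 0.737, adjusted p = 0.000127), Siglec1 11-fold (3.47, SE 0.382, adjusted p = 2.25e-07) and Cd33 2.27-fold (1.18, SE 0.216, adjusted p = 9.34e-05). Siglech went the other way, with 6.9 ± 1.53 CPM in air macrophages (SD, n = 5) and 33.9 ± 9.86 CPM in air spleens (SD, n = 4; log2 difference -2.30, SE 0.18, edgeR adjusted p = 2.02e-09). Cd22 (log2 difference -0.37, 95% interval -0.77 to 0.03, edgeR adjusted p = 0.0968) and Siglecg (-0.20, 95% interval -0.60 to 0.19, adjusted p = 0.359) did not pass. With upper-quartile scaling, which moved the median of all genes to -0.29 against 0 with TMM scaling, both did, at -0.66 (adjusted p = 0.00557) and -0.49 (adjusted p = 0.0281), and likewise without spleen air replicate 1, at -0.53 (adjusted p = 0.0256) and -0.41 (adjusted p = 0.0444). Cd22 also passed without macrophage air replicate 4, at -0.53 (adjusted p = 0.0208). The preparations came from separate experiments, so preparation and experiment cannot be told apart.

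**Figure D2:**
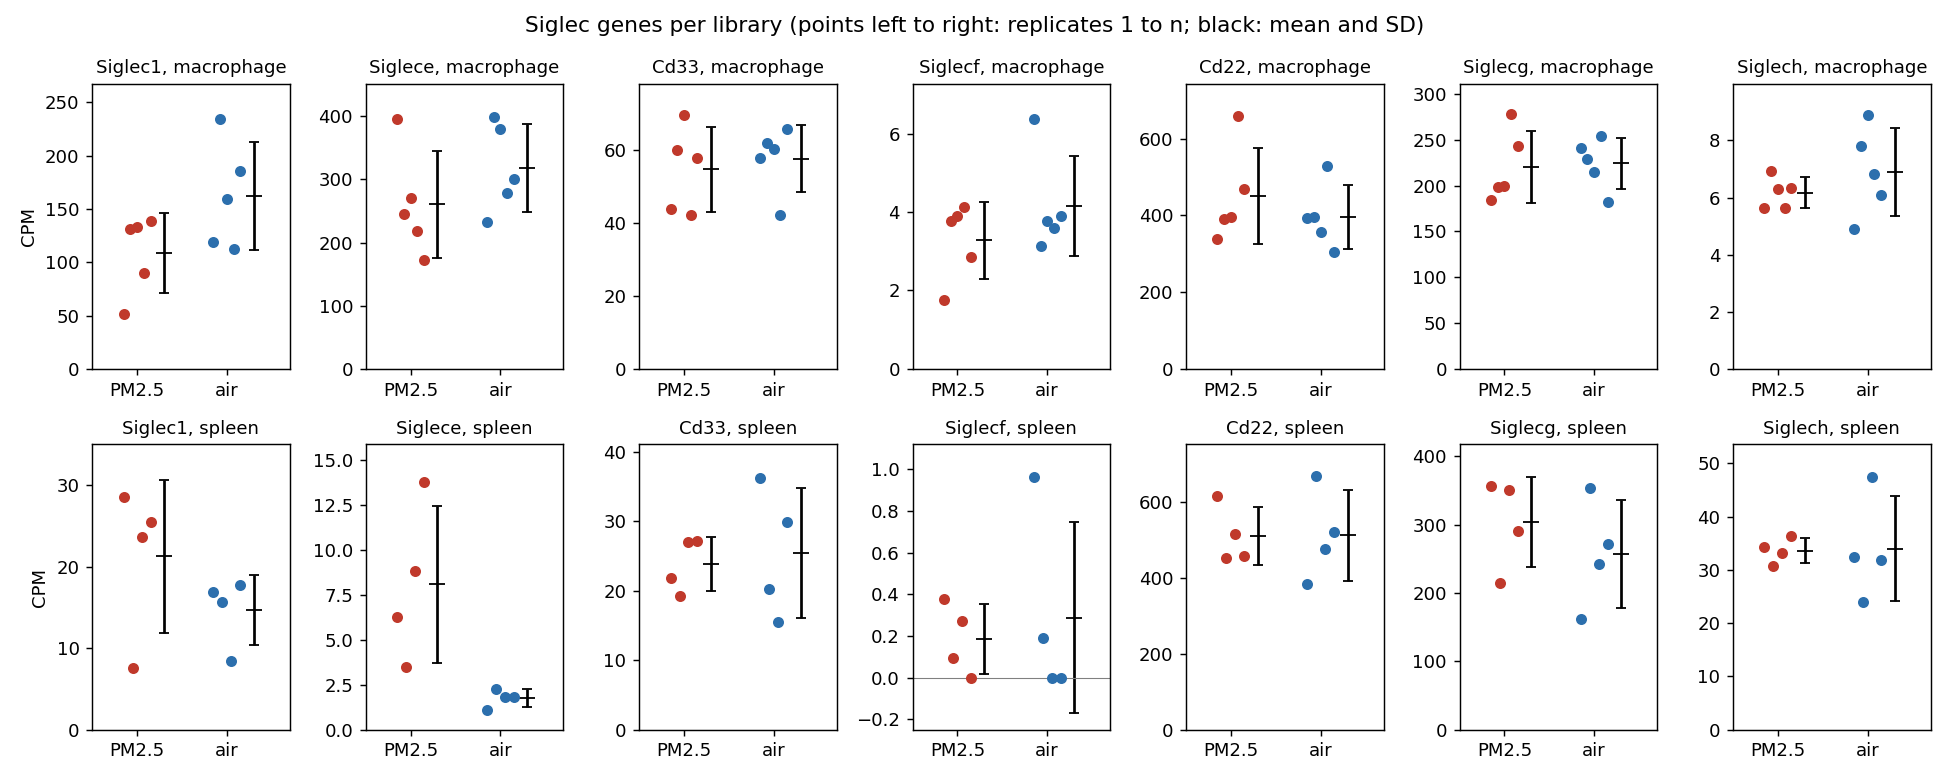
CPM of each Siglec in every library, macrophages in the upper row and whole spleens in the lower row, PM2.5 in red and air in blue, with group mean and SD in black. The only gene whose exposure groups separate is Siglece in the spleen, where PM2.5 libraries lie at 3.51 to 13.8 CPM and air libraries at 1.08 to 2.26 CPM.

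Siglece, the inhibitory receptor of neutrophils, monocytes and macrophages, was the member with the clearest difference between exposures, and only in the whole spleen. It had 6.26, 3.51, 8.81 and 13.8 CPM in the 4 PM2.5 spleens, against 1.08, 2.26, 1.84 and 1.81 CPM in the 4 air spleens. Those values rest on 150, 73, 196 and 296 reads after PM2.5 and on 18, 47, 39 and 33 reads after air. Every PM2.5 spleen lay above every air spleen, and the 4 PM2.5 libraries spread much more widely than the 4 air libraries. Among the 16551 genes tested in the spleen, 4.31% were separated in this direction. The difference was 4.56-fold (log2 2.19, SE 0.417, 95% interval 1.27 to 3.11), and it ranked 43 by p among all genes, with an edgeR adjusted p of 0.0941, which misses the threshold. Only 0.0121% of all genes, 2 in number, passed in this comparison, and 16.7% had an unadjusted p under 0.05. The call turned on the tool and the fit. Siglece passed with DESeq2 (log2 2.21, adjusted p = 0.000102), in edgeR without a filter on low counts (2.21, adjusted p = 0.00568) and in the joint fit (2.19, adjusted p = 0.00386). Over all genes DESeq2 called 830, the unfiltered fit 461 and the joint fit 1050, against the 2 above. The log2 difference stayed between 1.81 and 2.46 over 17 alternatives, with adjusted p-values of 0.000102 to 0.689.

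Siglece in the macrophage preparations did not follow the spleen. It had 396, 245, 270.1, 218 and 172 CPM after PM2.5, against 232, 399, 379, 278 and 299.8 CPM after air. The groups overlapped, and the highest PM2.5 library was replicate 1, whose label is in conflict. The log2 difference was -0.28 (SE 0.212, 95% interval -0.74 to 0.18, edgeR adjusted p = 0.651). It was -0.50 without macrophage PM2.5 replicate 1 (adjusted p = 0.288) and -0.56 with that library counted as air (adjusted p = 0.529).

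The contrast between the preparations was tested directly in the joint fit, as the PM2.5 difference in macrophages minus that in spleen. For Siglece it was -2.48 on the log2 scale (SE 0.451, 95% interval -3.42 to -1.53, edgeR adjusted p = 0.0183), and it was the 1 member of 7 that passed, where 1.46% of all genes passed and 1.04% did so in this direction. It remained past the threshold in 24 of 26 alternatives, with values of -2.74 to -2.10. The exceptions were limma-voom (-2.36, adjusted p = 0.0832) and the fit without spleen air replicates 3 and 4 (-2.52, adjusted p = 0.121). The other members lay between -1.11 for Siglec1 (SE 0.481, adjusted p = 0.2) and 0.20 for Cd22 (SE 0.273, adjusted p = 0.727).

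**Figure D3:**
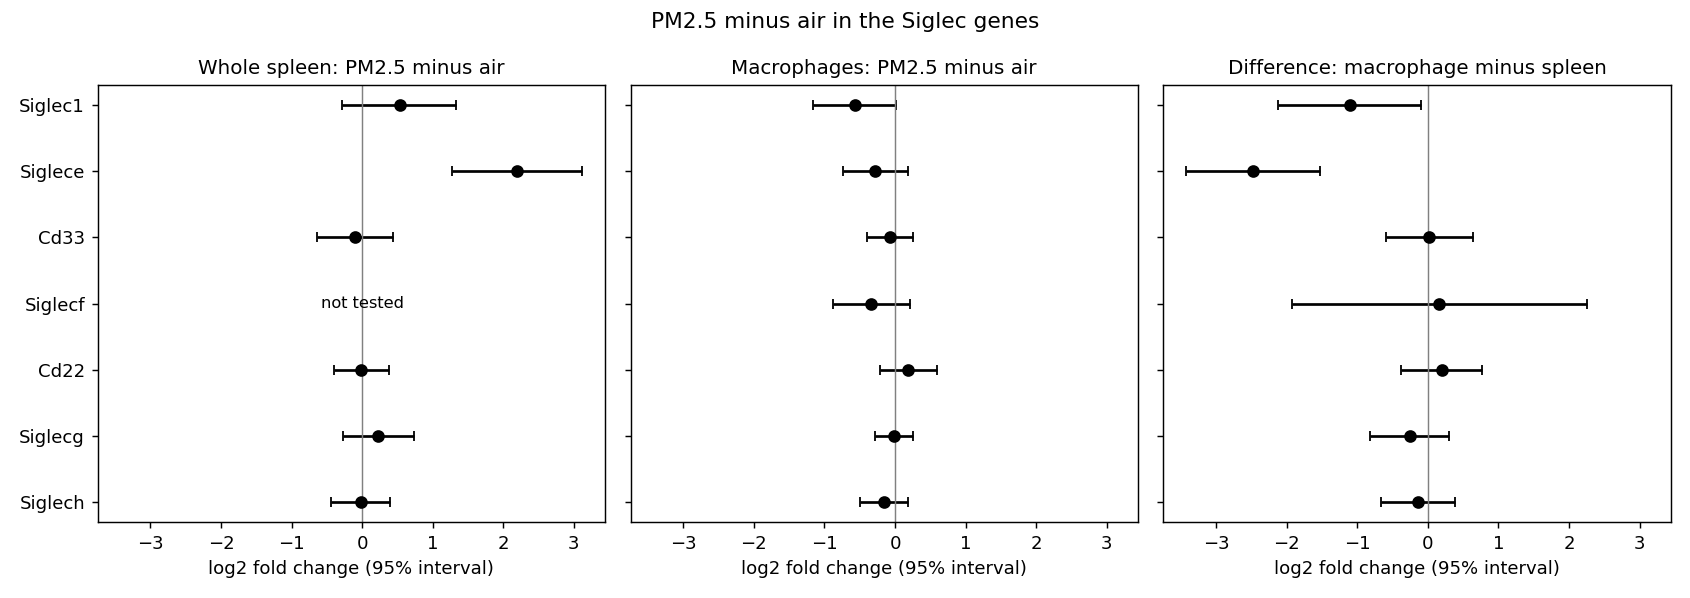
Log2 fold change of PM2.5 over air for each Siglec in whole spleen and in macrophages, and the difference of the 2 (macrophage minus spleen), as points with 95% intervals from edgeR on a shared axis. Siglece stands at 2.19 in the spleen, -0.28 in macrophages and -2.48 in the difference, and Siglecf was not tested in the spleen because it did not pass the filter on low counts.

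The marker sums of several cell types are given beside Siglece for the 8 spleens. The 13 red pulp macrophage markers summed to 705, 819, 909 and 1043 CPM after PM2.5, against 871, 550.2, 501 and 522 CPM after air, and 12 of the 13 lay higher in PM2.5 spleens (median log2 difference 0.56). With edgeR 0 of the 13 passed and 9 had an unadjusted p under 0.05, and with DESeq2 3 passed, Cd163, Slc40a1 and Cd5l. DESeq2 called 830 genes over all in the spleen. As a percentage of that sum, Siglece stood at 0.902 ± 0.368 (range 0.428 to 1.32) after PM2.5 and at 0.312 ± 0.128 (range 0.124 to 0.41) after air (SD, n = 4 each). The 2 ranges did not overlap, and neither did those of Siglece CPM itself. In macrophages the same ratio was 1.21 ± 0.304 after PM2.5 and 1.38 ± 0.269 after air (SD, n = 5 each). This ratio was chosen after the values were seen, and it depends on which markers are summed. The spleen log2 differences of the 13 markers ran from -0.19 for Timd4 to 2.30 for Cd163. Whether Siglece changed beyond its cells was not tested. Within the list, Cd163, which takes up haptoglobin-bound hemoglobin, resembled Siglece. It had 10 ± 5.71 CPM in PM2.5 spleens and 2.01 ± 0.684 CPM in air spleens (SD, n = 4 each), a log2 difference of 2.30 (SE 0.438, edgeR adjusted p = 0.0941), and its difference between macrophages and spleen was -2.59 (SE 0.403, edgeR adjusted p = 0.00877). Cd163 was named after its values were seen.

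The 7 mesothelial markers, genes of the layer that covers the spleen, summed to 39.7, 40.6, 120.3 and 234 CPM after PM2.5 and to 5.35, 4.9, 4.87 and 2.75 CPM after air. All 7 passed with DESeq2, which called 830 genes over all, and 0 with edgeR, where all 7 had an unadjusted p under 0.05. In the macrophage libraries that sum was 0.558 to 1.57 CPM. The 14 neutrophil markers, which matter because neutrophils express Siglece, summed to 78.9, 33.4, 139 and 234 CPM after PM2.5 and to 103, 22, 23.5 and 28.3 CPM after air. Of the 10 neutrophil markers tested, 9 lay higher after PM2.5, 0 passed with edgeR or DESeq2, and 5 had an unadjusted p under 0.05. For monocytes, which also express Siglece, 10 markers summed to 482, 407, 486 and 541 CPM after PM2.5. After air they summed to 509.9, 416, 413 and 414 CPM. Of these markers 7 lay higher and 3 lower after PM2.5, 0 passed with edgeR and 5 had an unadjusted p under 0.05. DESeq2 called 2 of them, Ace and Csf1r. Erythroid markers summed to 512, 9654, 2426 and 5842 CPM after PM2.5 and to 1685, 216, 268 and 457 CPM after air. All 10 lay higher after PM2.5, 0 passed with edgeR, where all 10 had an unadjusted p under 0.05, and 7 passed with DESeq2. Without PM2.5 replicates 2 and 4 the Siglece difference was 2.11 (edgeR adjusted p = 0.333), and without air replicates 3 and 4 it was 2.26 (adjusted p = 0.689). The part of any of these cell types in the Siglece difference was not tested.

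**Figure D4:**
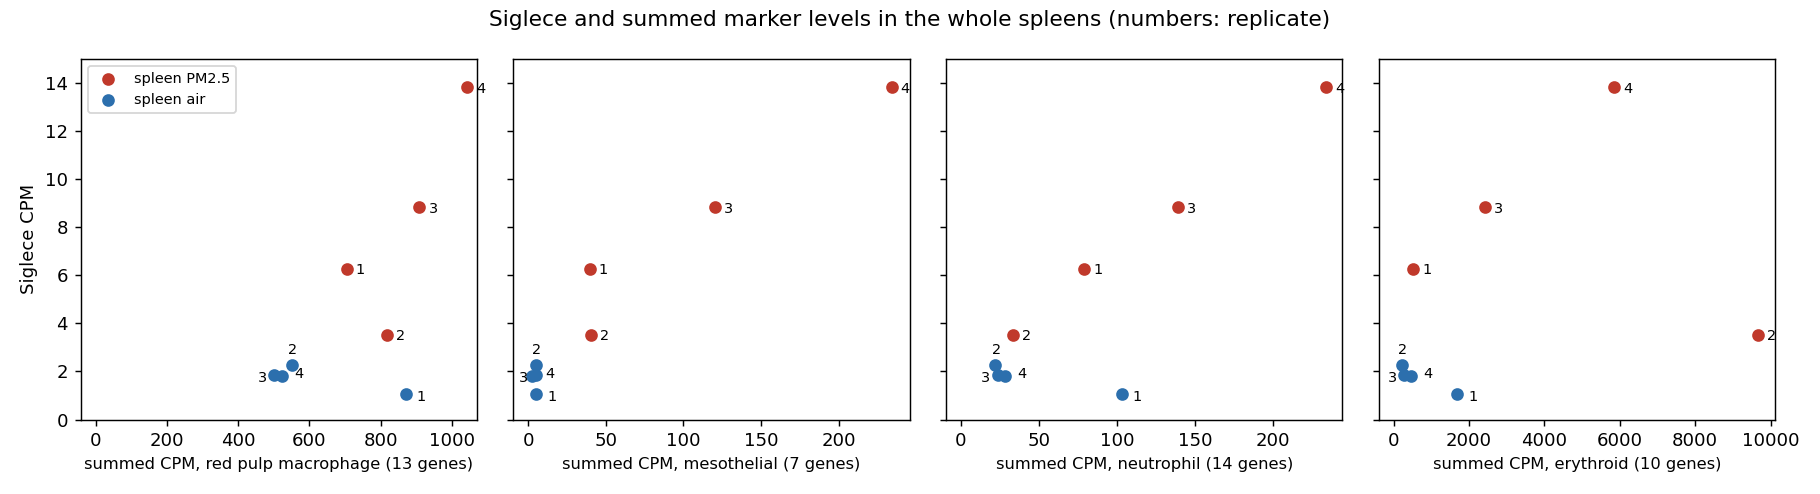
Siglece CPM in the 8 whole spleens against the summed CPM of red pulp macrophage, mesothelial, neutrophil and erythroid markers, with PM2.5 in red, air in blue and replicate numbers beside the points. The PM2.5 spleen with the highest Siglece, replicate 4 at 13.8 CPM, also has the highest red pulp, mesothelial and neutrophil sums (1043, 234 and 234 CPM).

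The genes whose levels were most like those of Siglece over the 18 libraries, each centred within its preparation, were Sema3f (r = 0.922), Sema3d (r = 0.918) and Cldn5 (r = 0.915). Sema3f and Sema3d encode secreted semaphorins and Cldn5 a tight-junction protein of endothelial cells. Cldn5 had 12.9 ± 5.95 CPM in PM2.5 spleens and 3.96 ± 1.22 CPM in air spleens (SD, n = 4 each; log2 difference 1.69, SE 0.354, edgeR adjusted p = 0.108). In macrophages, with 2.4 ± 1.71 CPM after PM2.5 and 3 ± 0.913 CPM after air (SD, n = 5 each), the correlation with Siglece was 0.774 for Cldn5 and 0.619 for Sema3d, against 0.98 and 0.959 in the spleens. Sema3d had 8.12 ± 7.08 CPM in PM2.5 spleens and 0.492 ± 0.415 CPM in air spleens (SD, n = 4 each; log2 difference 3.98, SE 0.728, edgeR adjusted p = 0.0941). Sema3f gave 1.25 in spleen (SE 0.368, edgeR adjusted p = 0.147). Levels were not centred within exposure, so the exposure difference by which Siglece stood out is part of each r. These likenesses share the libraries and their marker content, and they are given as a description over 13020 genes.

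Siglec1, the sialoadhesin of marginal metallophilic macrophages, had differences of opposite sign in the 2 preparations, and neither passed. In macrophages it had 51.4, 131, 133, 90.3 and 139 CPM after PM2.5, against 119, 234, 159, 112 and 186 CPM after air. The lowest library was PM2.5 replicate 1, which had been the highest PM2.5 library for Siglece, and 3 of the 5 PM2.5 values lay within the air range. The log2 difference was -0.57 (SE 0.27, 95% interval -1.16 to 0.02, edgeR adjusted p = 0.476), and it was -0.23 with replicate 1 counted as air (adjusted p = 0.854) and -0.41 without it (adjusted p = 0.435). In the spleen Siglec1 had 28.5, 7.54, 23.6 and 25.5 CPM after PM2.5, against 16.9, 15.7, 8.37 and 17.8 CPM after air. Of the PM2.5 spleens 3 lay above every air spleen, and replicate 2, the one richest in erythroid RNA, lay below them all. The log2 difference was 0.53 (SE 0.366, 95% interval -0.28 to 1.33, edgeR adjusted p = 0.504), and 0.84 without PM2.5 replicate 2.

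Relative to the sum of 6 markers of marginal metallophilic and marginal zone macrophages, Siglec1 overlapped between exposures in both preparations. It was 7.21% ± 2.3 after PM2.5 and 8.76% ± 1.84 after air in macrophages (SD, n = 5 each). In PM2.5 and air spleens it was 11.8% ± 4.27 and 11.6% ± 2.06 (SD, n = 4 each). In macrophages most of the sum came from Tgm2, Mertk and Nr1h3, at 571, 535 and 294 CPM after PM2.5 and 732, 626 and 351 CPM after air. There the ratio mainly sets Siglec1 against those genes. Marginal zone macrophages, the other cell type of that list, are defined by receptors such as Marco and Cd209b. The scavenger receptor Marco had 99.2 ± 20 CPM in PM2.5 macrophages and 106 ± 40 CPM in air macrophages. The SIGN-R1 lectin Cd209b had 9.54 ± 2.49 CPM in PM2.5 macrophages and 10.1 ± 2.11 CPM in air macrophages (SD, n = 5 each). In PM2.5 and air spleens Marco had 63.5 ± 28.8 and 42.5 ± 22.5 CPM (log2 difference 0.57, SE 0.426, edgeR adjusted p = 0.536). Cd209b had 3.33 ± 2.05 and 3.45 ± 2.39 CPM there (-0.05, SE 0.641, edgeR adjusted p = 0.98). Gpr137b-ps (r = 0.871), Tanc2 (r = 0.87) and Ptprj (r = 0.852), the last a receptor tyrosine phosphatase, were most like Siglec1 over the 18 libraries.

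Cd33 had 43.7, 60, 69.7, 42.1 and 57.9 CPM in PM2.5 macrophages, against 57.9, 62, 60.2, 42.1 and 65.8 CPM in air macrophages. In the spleen it had 21.9, 19.3, 27 and 27.1 CPM after PM2.5, against 36.3, 20.2, 15.5 and 29.9 CPM after air. Groups overlapped in both, with log2 differences of -0.07 in macrophages (95% interval -0.40 to 0.26, edgeR adjusted p = 0.886) and -0.10 in spleen (95% interval -0.64 to 0.44, adjusted p = 0.875). The gene most like Cd33 was Npl (r = 0.846), the lyase that breaks down free sialic acid, with 21 ± 4.28 CPM in PM2.5 macrophages and 21.1 ± 3.09 CPM in air macrophages (SD, n = 5 each). Over the 18 libraries Cd33 correlated with Siglec1 at 0.64 and with Siglece at 0.01.

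Siglecf was close to the limit of detection in the spleen. It had 9, 2, 6 and 0 reads in the PM2.5 spleens and 16, 4, 0 and 0 reads in the air spleens, did not pass the filter on low counts, and was not tested there. In macrophages it had 1.75, 3.76, 3.9, 4.12 and 2.85 CPM after PM2.5, against 6.38, 3.14, 3.76, 3.6 and 3.91 CPM after air, a log2 difference of -0.34 (95% interval -0.88 to 0.21, edgeR adjusted p = 0.643). Without air replicate 1, the highest library, it was -0.13. Of the eosinophil genes, Epx, the eosinophil peroxidase, had 8.9 ± 4.92 CPM in PM2.5 macrophages and 3.3 ± 1.22 CPM in air macrophages (SD, n = 5 each; log2 difference 1.46, SE 0.357, edgeR adjusted p = 0.258), against at most 0.048 CPM in any spleen. Of the 9 eosinophil genes, 7 lay higher after PM2.5 and 2 lower, Ccr3 at -0.15 and Ear2 at -0.06, with a median of 0.23. With edgeR 0 passed and 4 had an unadjusted p under 0.05, and with DESeq2 2 passed, Epx and Prg2. DESeq2 called 175 genes over all in macrophages. The list summed to 519 ± 71.6 CPM in PM2.5 macrophages and 524 ± 69.8 CPM in air macrophages (SD, n = 5 each). Most of that sum came from the 2 genes that lay lower. Ccr3 had 331 CPM after PM2.5 and 368 CPM after air, and Ear2 96.7 and 101 CPM. The near equality of the sums therefore does not describe the 7 genes that lay higher.

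The B-cell Siglecs varied together between libraries, and neither passed the threshold in either exposure comparison. Cd22 had 339.7, 391, 397, 658 and 469.9 CPM in PM2.5 macrophages, against 393, 395, 356, 528 and 305 CPM in air macrophages. In the spleen it had 614, 452, 515 and 456 CPM after PM2.5, against 383, 668, 474 and 520 CPM after air. The highest macrophage library of each exposure was replicate 4, which also had the highest B-cell marker sum of its group (4336 CPM after PM2.5 and 3839.5 CPM after air). The log2 differences were 0.19 in macrophages (95% interval -0.21 to 0.60, edgeR adjusted p = 0.722) and -0.01 in spleen (95% interval -0.40 to 0.38, adjusted p = 0.983).

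Siglecg had 184, 198, 199, 278 and 243 CPM in PM2.5 macrophages, against 240.4, 229, 215, 254 and 182 CPM in air macrophages. In the spleen it had 356, 215, 351 and 291 CPM after PM2.5, against 162, 353, 242 and 272 CPM after air. Its log2 differences were -0.02 (95% interval -0.29 to 0.25, edgeR adjusted p = 0.966) in macrophages and 0.23 (95% interval -0.27 to 0.73, adjusted p = 0.653) in spleen. Cd22 and Siglecg correlated at 0.86 over the 8 spleens and at 0.89 over the 10 macrophage libraries, after centring within each preparation. Spib, a transcription factor of B cells and plasmacytoid dendritic cells, was among the 3 genes most like each of them, with r = 0.904 for Cd22 and 0.942 for Siglecg. Relative to the 10 B-cell markers, Cd22 was 13.1% ± 1.52 after PM2.5 and 12.8% ± 0.581 after air in macrophages (SD, n = 5 each), and 9.48% ± 1.13 in PM2.5 spleens and 8.08% ± 1.98 in air spleens (SD, n = 4 each). Siglecg was 6.49% ± 0.344 and 7.32% ± 0.428 of the same sum in PM2.5 and air macrophages (SD, n = 5 each), and 5.57% ± 0.453 and 4.07% ± 1.28 in PM2.5 and air spleens (SD, n = 4 each). The sum itself was 5403 ± 791 CPM in PM2.5 spleens and 6341 ± 410.4 CPM in air spleens, and all 10 markers lay lower after PM2.5 (median log2 difference -0.20). With edgeR 0 of the 10 passed and 3 had an unadjusted p under 0.05, and with DESeq2 1 passed, Pax5.

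Siglech, the DAP12-coupled receptor of plasmacytoid dendritic cells, had nearly equal means in the 2 exposures of the spleen. It had 34.2, 30.8, 33.1 and 36.3 CPM in PM2.5 spleens, against 32.5, 23.9, 47.5 and 31.8 CPM in air spleens (log2 difference -0.02, 95% interval -0.44 to 0.40, edgeR adjusted p = 0.974). The 4 PM2.5 spleens lay within the range of the air spleens. In macrophages it had 5.62, 6.94, 6.3, 5.65 and 6.34 CPM after PM2.5, against 4.9, 7.79, 8.88, 6.84 and 6.08 CPM after air (log2 difference -0.16, 95% interval -0.50 to 0.19, edgeR adjusted p = 0.738). Ccr9, a chemokine receptor of these dendritic cells, had 3.35 ± 0.643 CPM in PM2.5 macrophages and 4.03 ± 0.721 CPM in air macrophages (SD, n = 5 each), and 13.3 ± 1.16 CPM in PM2.5 spleens and 12.2 ± 4.2 CPM in air spleens (SD, n = 4 each). Between air preparations Ccr9 was lower in macrophages (log2 difference -1.59, SE 0.206, edgeR adjusted p = 1.83e-06). The 12 plasmacytoid dendritic cell markers did not share 1 direction there: 7 passed as lower and 3 as higher, Cox6a2 at 4.52, Lair1 at 3.03 and Irf8 at 0.75, while Runx2 and Spib did not pass. Their sum was 1479.6 ± 58.7 CPM in air macrophages (SD, n = 5) and 1534 ± 63.1 CPM in air spleens (SD, n = 4).

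In all, 0 of the 7 members passed the threshold in macrophages with edgeR, where 0% of 15696 genes passed and 10.9% had an unadjusted p under 0.05. None of the 7 had such a p, the lowest being 0.0566 for Siglec1, and DESeq2 also called 0 members. 6 of the 7 lay lower after PM2.5, with a median log2 difference of -0.16, against 0.01 over all genes tested. In the spleen 6 members passed the filter and edgeR called 0 of them, with an unadjusted p under 0.05 for 1, Siglece. Of the 6, 3 lay higher and 3 lower, and the median was 0.11 against 0.02 over all genes. 2 further Siglec genes are known in the mouse. Mag, the myelin-associated glycoprotein, had 11.2 ± 2.66 CPM in PM2.5 macrophages and 13.2 ± 1.66 CPM in air macrophages (SD, n = 5 each; log2 difference -0.23, edgeR adjusted p = 0.615). Siglec15, which pairs with DAP12 on osteoclasts, stayed under 1 CPM in every library.

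The genes that carry Siglec signals, make their sialic acid ligands or remove them were listed around the family. Of the 8 signalling partners, all were tested and 0 passed with edgeR or DESeq2 in either exposure comparison, with medians of -0.06 in macrophages and -0.01 in spleen. The unadjusted edgeR p was under 0.05 for 1 gene in each, Lyn in macrophages and Hcst, which encodes the adaptor DAP10, in spleen. Ptpn6, encoding SHP-1, had 611 ± 41.5 CPM in PM2.5 macrophages and 629 ± 42.3 CPM in air macrophages (SD, n = 5 each). Syk had 1232 ± 156 and 1281 ± 42.4 CPM, and Lyn, the kinase that phosphorylates the inhibitory motifs, 692 ± 32.6 and 795 ± 59.9 CPM in PM2.5 and air macrophages. Lyn gave a log2 difference of -0.20 (SE 0.0758, edgeR adjusted p = 0.39). Tyrobp was higher in air macrophages than in air spleens by 2.64 (SE 0.202, edgeR adjusted p = 1.51e-09), opposite in direction to Siglech, the member that signals through it.

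Of 7 genes that make, activate, carry, convert or break down sialic acid, 5 gave log2 differences of 0.23 to 0.62 in macrophages, and Slc35a1, the CMP-sialic acid transporter, and Npl gave 0.00, with a median log2 difference of 0.24 against 0.01 over all genes. The 0.62 was that of Nanp, a scarce gene with 0.679 ± 0.196 CPM after PM2.5 and 0.46 ± 0.131 CPM after air. The next highest was Nans at 0.32. With edgeR and with DESeq2 0 passed, and the unadjusted edgeR p was under 0.05 for 2, Gne and Nans. Nans, the sialic acid synthase, had 45.9 ± 7.16 CPM after PM2.5 and 36.9 ± 3.75 CPM after air (SD, n = 5 each; log2 difference 0.32, SE 0.11, edgeR adjusted p = 0.358). Cmas, which activates sialic acid to its CMP form, gave 0.23 (SE 0.143, adjusted p = 0.582) and Cmah, which converts it to the glycolyl form that mouse Cd22 prefers, gave 0.24 (SE 0.19, adjusted p = 0.667). In the spleen 3 of these 7 lay higher and 4 lower, with a median of -0.12, 0 called by either tool and 1 with an unadjusted p under 0.05, Cmas. The 2 preparations thus differed in the sign of the median.

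Of the 20 sialyltransferase genes, 14 were tested in macrophages, with 5 higher, 9 lower and 0 called, and 15 in spleen, with 10 higher, 5 lower and 0 called. The unadjusted edgeR p was under 0.05 for 2 in macrophages and 3 in spleen, while DESeq2 called 0 in macrophages and 1 in spleen, St3gal5. St6gal1, which makes the sialic acid linkage bound by Cd22, gave 0.12 (SE 0.121, edgeR adjusted p = 0.737) in macrophages and -0.13 (SE 0.112, adjusted p = 0.6) in spleen. St3gal5, the GM3 ganglioside synthase, gave the largest difference of the list in spleen, with 42.1 ± 31.1 CPM after PM2.5 and 10.4 ± 3.69 CPM after air (SD, n = 4 each; log2 difference 2.02, SE 0.504, edgeR adjusted p = 0.126). Its PM2.5 spleens ranged from 12.2 to 84 CPM and overlapped the air spleens at 5.86 to 14.4 CPM. St8sia1, the GD3 synthase, had 9.53 ± 2.24 CPM in PM2.5 macrophages and 17.5 ± 8.15 CPM in air macrophages (SD, n = 5 each; log2 difference -0.87, SE 0.284, edgeR adjusted p = 0.333). St3gal5 and St8sia1 were named after their values were seen.

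Of 4 sialidases, Neu1 and Neu3 were tested, and 0 passed with edgeR or DESeq2. Neu3, the plasma-membrane sialidase, gave 0.48 (SE 0.188, edgeR adjusted p = 0.39, unadjusted p under 0.05) in macrophages and 0.58 (SE 0.327, adjusted p = 0.403) in spleen, and Neu1, the lysosomal one, gave -0.05 (SE 0.0955, adjusted p = 0.857) and 0.08 (SE 0.181, adjusted p = 0.871). Of 6 sialylated proteins that serve as Siglec ligands or counter-receptors, 5 were tested in macrophages and 6 in spleen, and 0 passed with edgeR. The unadjusted p was under 0.05 for 2 in macrophages, Spn and Podxl, and for 0 in spleen, and DESeq2 called 1 in macrophages, Spn, and 0 in spleen. Podxl, which encodes podocalyxin, gave 1.30 (SE 0.452, edgeR adjusted p = 0.358) in macrophages. It was scarce there, with 1.63 ± 1.35 CPM after PM2.5 (range 0.942 to 4.05) and 0.647 ± 0.17 CPM after air. Ptprc, or CD45, a ligand of Cd22, gave -0.17 (SE 0.0898, edgeR adjusted p = 0.53) in macrophages and 0.02 (SE 0.149, adjusted p = 0.968) in spleen. Spn, or CD43, a ligand of Siglec1, had 76.3 to 101 CPM in PM2.5 macrophages and 52.7 to 72.4 CPM in air macrophages, without overlap, as did 1.38% of the 15696 genes in this direction. Its log2 difference was 0.50 (SE 0.097, edgeR adjusted p = 0.258). Spn was named after its values were seen, and it is expressed by several kinds of leukocyte. Of 9 T-cell markers 8 lay higher in the same libraries, with a median of 0.35, 0 called by edgeR or DESeq2 and 3 with an unadjusted p under 0.05. Their sum was 183 ± 15.1 CPM after PM2.5 and 181 ± 21.9 CPM after air. Cd4, the 1 marker that lay lower (log2 difference -0.28), made up 81.9 and 99.9 CPM of those sums. Their near equality therefore does not describe the 8 markers that lay higher. Of the 13 neutrophil markers tested, 11 lay higher (median 1.49), 0 passed with edgeR, 7 had an unadjusted p under 0.05 and DESeq2 called 3, Camp, Elane and Mpo. Their list summed to 276 ± 88.8 CPM after PM2.5 and 206 ± 34.3 CPM after air (SD, n = 5 each). Of the 10 monocyte markers 7 lay higher (median 0.23), 0 passed with edgeR, 4 had an unadjusted p under 0.05 and DESeq2 called 2, Ly6c2 and Chil3. The monocyte list summed to 4636 ± 549 CPM after PM2.5 and 5586 ± 766 CPM after air. Most of that sum was Csf1r, with 3821 ± 474 CPM after PM2.5 and 4825 ± 728 CPM after air (SD, n = 5 each). The sum therefore says little about the other genes of the list. Csf1r was higher in air macrophages than in air spleens by 5.44 on the log2 scale (SE 0.184, edgeR adjusted p = 5.68e-14). The part of those cells in the Spn difference was not tested.

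**Figure D5:**
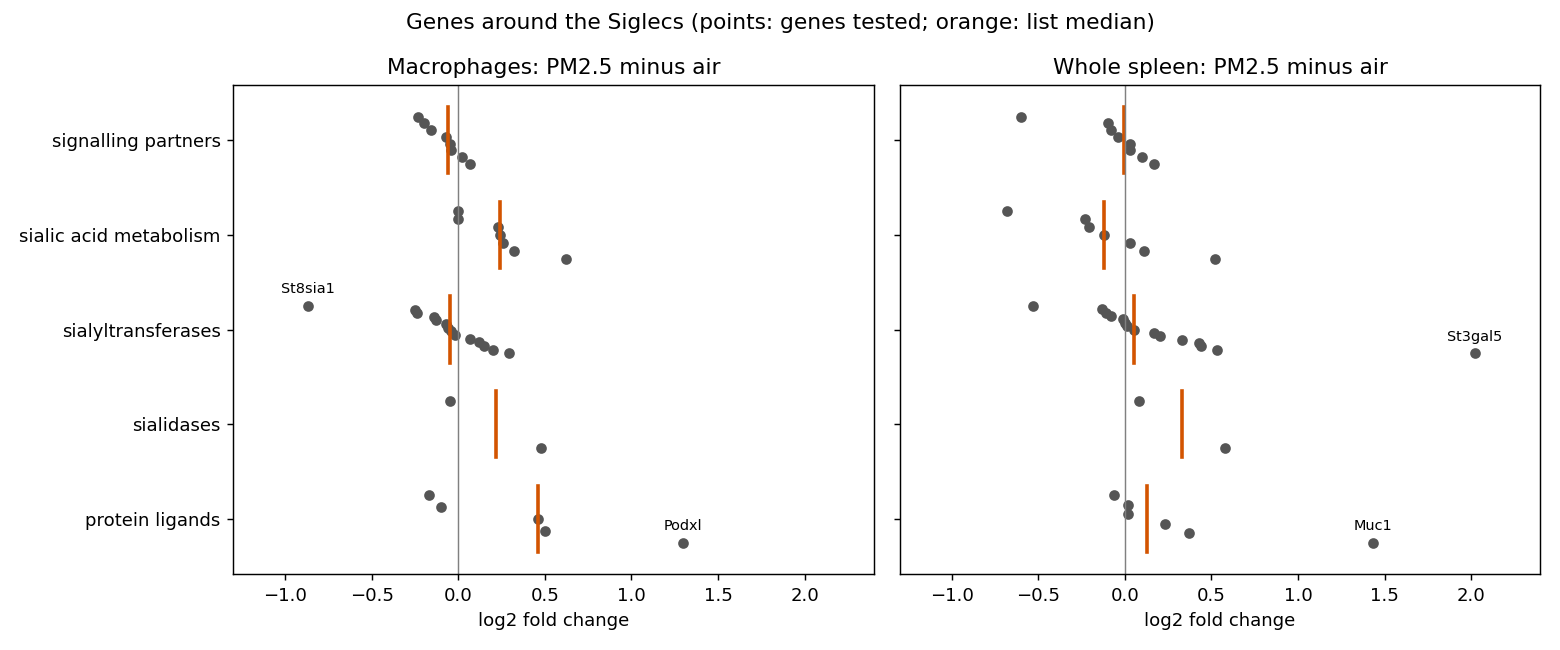
Log2 fold change of PM2.5 over air for each tested gene of the 5 lists around the Siglecs, in macrophages on the left and whole spleen on the right, with list medians in orange. Medians stay within 0.46 of 0 in both panels. Podxl at 1.30 and St8sia1 at -0.87 are the highest and lowest genes in macrophages, and St3gal5 at 2.02 is the highest in spleen. Podxl rests on low levels, with means of 1.63 CPM in PM2.5 macrophages and 0.647 CPM in air macrophages.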

How the data were processed

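The deposited table holds raw counts of reads per Ensembl gene, which the authors made with HTSeq 0.10.0 after FastQC 0.10.1 on the builds mm10 and GRCm38, per the submitters' processing notes. The sources used here name no aligner, annotation release or strand setting. Gene names and exon lengths came from GENCODE M21, in which 52081 of 55414 identifiers had a symbol. The members, gene lists and alternatives were chosen with earlier results of these data known, and the named genes were the members, the lists' leading genes and the 3 genes most like each member. Counts were filtered with filterByExpr (minimum count 10, minimum total 15), given TMM factors and analysed by the two-sided quasi-likelihood test of edgeR 4.0.16 in R 4.3.3, with Benjamini-Hochberg adjustment over all genes. Spleen and macrophage exposures were each fitted alone, and the difference between them and the comparison of the air groups in a joint fit. Levels are CPM scaled over all 18 libraries. Likeness is Pearson's r of log2 CPM with a pseudocount of 0.5, centred within each preparation but not within exposure. It was taken over genes with a mean of at least 1 CPM in both preparations. Alternatives were other scalings, DESeq2 1.42.0, limma-voom (limma 3.58.1), no filter, a replicate block, the joint fit, another group for 1 library and the omission of libraries. No 2 libraries of a group agreed within sampling noise. The steps were tested on simulated counts with planted changes and the same spread beyond counting noise for every gene. That checks the steps and not the calls in these libraries, whose spread differs between genes.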

Additional observations from a re-analysis of the deposited data

Results flagged for a closer look

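The PM2.5 difference of Siglece was unlike in the 2 preparations, at -0.28 in macrophages and 2.19 in the whole spleen on the log2 scale. The test of the difference itself gave -2.48 (SE 0.451, edgeR adjusted p = 0.0183), and the spleen libraries behind it also differ in marker sums of several cell types, as given above.

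Siglecf in air macrophages had 1 library far from the others, replicate 1 with 6.38 CPM, against 3.14 to 3.91 CPM in the other 4. The gap took up 0.762 of the group's range. It was the 1 group so marked among the 28 looked at, and chance marks about 1 in 20.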

How the results depend on the processing

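With edgeR, the number of genes past the threshold in the spleen was 2, against 1 with DESeq2's size factors, 1 with limma-voom, 830 with DESeq2, 461 without a filter, 1050 in the joint fit, 0 without PM2.5 replicates 2 and 4 and 0 without air replicates 3 and 4. DESeq2, the unfiltered fit and the joint fit each called 1 member, Siglece. In macrophages the number was 0, against 175 with DESeq2 and 1 without a filter. For the difference it was 259, against 1044 with DESeq2, 3 with limma-voom, 48 without spleen PM2.5 replicates 2 and 4, 9 without spleen air replicates 3 and 4 and 87 with macrophage PM2.5 replicate 1 counted as air. 0 members were called with limma-voom and 0 without spleen air replicates 3 and 4. Leaving out 1 library at a time gave 0 to 219 genes in the spleen, 0 to 17 in macrophages and 68 to 1317 for the difference. The lowest spleen count came without air replicate 3 and the highest without air replicate 2, as for the difference, and the highest macrophage count without air replicate 4. Signs turned only for differences near 0 or of few reads, none of them called. In the spleen, Cd22 (-0.01) became 0.01 with limma-voom, without a filter and with the replicate block, and 0.15 without PM2.5 replicates 2 and 4. Siglech (-0.02) became 0.02 with limma-voom and with the replicate block, 0.01 without a filter, 0.00 without PM2.5 replicates 2 and 4 and 0.26 without air replicates 3 and 4. With macrophage PM2.5 replicate 1 counted as air, Cd33 became 0.05 and Siglecg 0.07 in macrophages. In the difference, Cd33 (0.02) became -0.01 with DESeq2's size factors and with DESeq2, -0.06 with limma-voom, and -0.02 without a filter and without spleen PM2.5 replicates 2 and 4. Siglecf (0.16) became -0.75 with limma-voom and -0.60 without those replicates. Leaving out 1 library at a time, the spleen differences ranged from -0.13 to 0.14 for Cd22, -0.28 to 0.11 for Cd33 and -0.16 to 0.19 for Siglech. The macrophage differences ranged from -0.17 to 0.01 for Cd33 and -0.12 to 0.03 for Siglecg. The differences of the 2 ranged from -0.20 to 0.21 for Cd33 and -1.79 to 0.76 for Siglecf, which had 0 to 16 reads per spleen. Without TMM scaling, mean levels in PM2.5 spleens were 595 CPM for Cd22, 27.8 CPM for Cd33 and 39.2 CPM for Siglech. Libraries with the same replicate number deviated from their group means with correlations of -0.15 to 0.07 in spleen and -0.15 to 0.33 in macrophages, so the numbers were not taken as pairs. With the replicate block, Siglece gave 2.09 in the spleen (adjusted p = 0.223), and the block changed no member's call. The causes of these shifts were not tested.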

Other observations

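Ccr3, a chemokine receptor best known from eosinophils, was the most abundant gene of the eosinophil list in macrophages. It had 331 ± 38.6 CPM in PM2.5 macrophages and 368 ± 54.1 CPM in air macrophages (SD, n = 5 each), and 3.96 ± 1.94 CPM in PM2.5 spleens and 0.428 ± 0.417 CPM in air spleens (SD, n = 4 each). The spleen ranges, 2.17 to 6.72 CPM after PM2.5 and 0 to 0.962 CPM after air, did not overlap (log2 difference 3.22, SE 0.767, edgeR adjusted p = 0.124), and Ccr3 passed there with DESeq2. The difference between the preparations was -3.41 (SE 0.53, edgeR adjusted p = 0.00877). The means of the other 8 eosinophil genes in macrophages ranged from 3.91 CPM (Ear6) to 96.7 CPM (Ear2) after PM2.5 and from 1.99 CPM (Ear6) to 101 CPM (Ear2) after air. Ccr3 was named after its values were seen.

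The genes most like Siglecf over the 18 libraries were Efr3a (r = 0.865), Setdb2 (r = 0.842) and Tinf2 (r = 0.836), and those most like Siglech were Gm9776 (r = 0.78), Paqr4 (r = 0.768) and Mras (r = 0.757). For Siglecg they were Sfi1 (r = 0.957), H2-Q5 (r = 0.95) and Spib. For Cd22 they were Spib, Chst3 (r = 0.895) and Atp2a3 (r = 0.893), and for Cd33 Npl, Ppp1r3b (r = 0.841) and Ocrl (r = 0.84). Siglecf had 0 to 16 reads per spleen, so the spleen part of its r rests on few reads. For Efr3a, Setdb2 and Tinf2 r was 0.901, 0.844 and 0.94 in spleens and 0.82, 0.854 and 0.674 in macrophages. Gm9776 had as few as 9 reads in a library.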
